A study of Mus musculus with 6 samples.

Results

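Cytosolic ribosomal proteins are the protein parts of the ribosome that works in the cytosol, as opposed to the ribosome of mitochondria. Members were chosen by gene symbol: Rpl or Rps followed by a number and at most 1 of the letters a, x, y and l with an optional digit, together with Rpsa, Rplp0, Rplp1 and Rplp2. S6 kinase genes and symbols with -ps were left out. The rule found 88 of 23557 genes, 52 of the large subunit and 36 of the small subunit. GENCODE annotates 83 of the 88 as protein coding and 5 as pseudogenes (Rpl6l, Rps12l1, Rps3a2, Rps3a3 and Rps4l), which the rule did not leave out.

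The tumors grew from CT26 cells, a mouse colorectal carcinoma line, injected under the skin of Balb/c mice at 500000 cells per mouse. The methods describe female mice, 7 weeks old when obtained, treated from day 6. H89, an inhibitor of protein kinase A and of some related kinases, was given into the peritoneum at 10 mg/kg 2 times a week, and control mice received NaCl. Tumors were taken on day 14 and sequenced whole, 3 per group, so each value mixes tumor cells with host cells.

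A ribosome holds 1 copy of nearly every ribosomal protein, so cells keep the amounts of these proteins close to each other, and surplus protein is degraded. Their mRNAs are among the most abundant of growing cells and begin with a run of pyrimidines, the 5′ terminal oligopyrimidine (TOP) motif, through which mTOR signaling and the protein Larp1 control their translation and storage. Mammalian genomes hold very many processed copies of these genes, and reads can be assigned to a gene or to its copy only where the sequences differ.

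The total estimated count was 29067921, 27067349 and 27883614 in NaCl tumors 1 to 3, and 28548727, 31958793 and 30936962 in H89-treated tumors 1 to 3. At the lowest of these totals 1 count was 0.0369 counts per 1000000 (CPM). Of the 88 members, 83 had a mean of at least 0.5 CPM and were tested, 49 of the large and 34 of the small subunit. Of the 5 others, Rpl10l, Rps12l1 and Rps27 were estimated at 0 in every tumor. Sequences identical or nearly identical to these genes are in the genome, so 0 does not show that reads from them were absent. Rpl3l had 0 to 0.129 CPM and Rpl6l 0.215 to 0.529 CPM. The members lie on 19 chromosomes, with 15 of the 88 on chromosome 7.

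The first question was how much of each tumor's RNA the family held. Its summed level was 71714, 69234 and 78612 CPM in NaCl tumors 1 to 3, and 58722, 53581 and 57538 CPM in H89-treated tumors 1 to 3. NaCl tumor 3 was the highest and H89-treated tumor 2 the lowest, and the groups did not overlap. As a share of all counts the family held 7.32% ± 0.486 in NaCl against 5.66% ± 0.269 in H89-treated tumors (mean ± SD, n = 3 each), and the log2 ratio was -0.37. In bulk samples, fewer cells of a type and less RNA per cell cannot be told apart.

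The subunits moved side by side. Large subunit members summed to 41153, 39913 and 44810 CPM in NaCl and to 33781, 31024 and 32904 CPM in H89-treated tumors, a log2 ratio of -0.37. Small subunit members summed to 30561, 29321 and 33802 CPM in NaCl and to 24942, 22557 and 24634 CPM in H89-treated tumors, a log2 ratio of -0.38. Neither subunit's groups overlapped. The ratio of large to small subunit counts was 1.34 ± 0.0179 in NaCl against 1.36 ± 0.0198 in H89-treated tumors (mean ± SD, n = 3 each). It overlapped between groups, so a shift between the subunits larger than this spread was not seen.

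**Figure D1:**
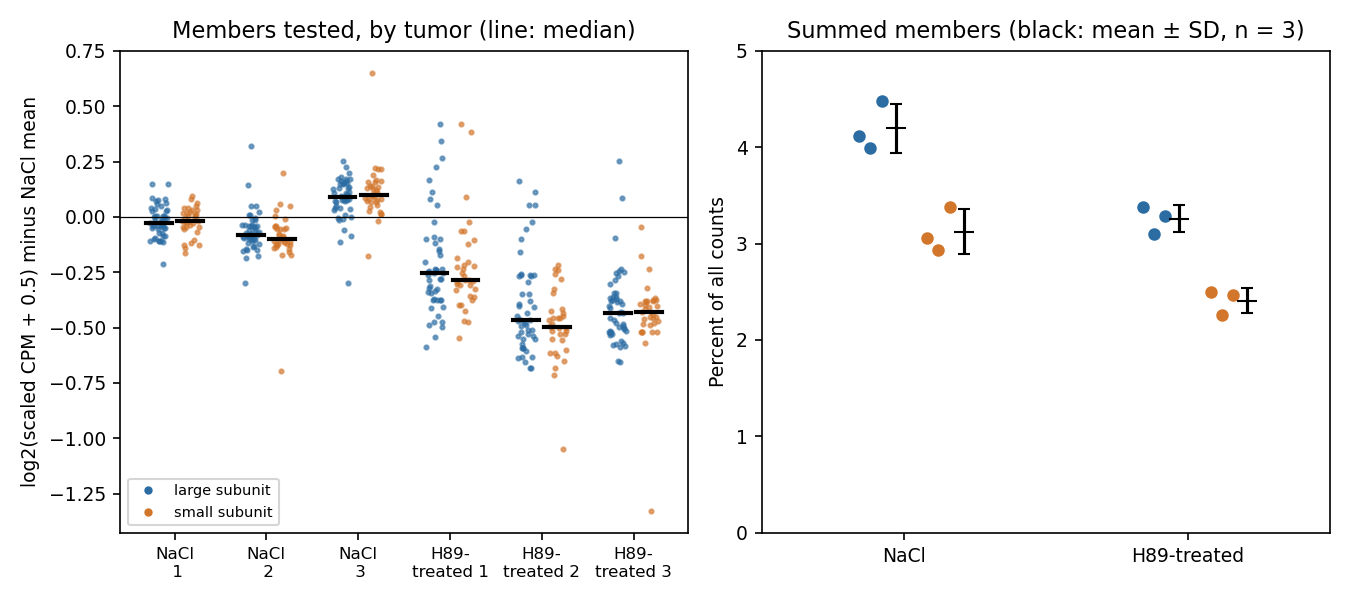
Left, each member tested as a point in each tumor (log2 of TMM-scaled CPM + 0.5, minus the mean of the NaCl tumors), with the median of each subunit as a line. Right, the summed share of all counts in percent for each tumor (points) with mean ± SD (n = 3), blue for the large and orange for the small subunit; the large subunit held 4.20% in NaCl and 3.26% in H89-treated tumors.

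Tumors of a group were not alike. After TMM scaling, which lines up the bulk of genes between tumors, the median member stood at -0.02, -0.08 and 0.09 on the log2 scale around the NaCl mean in NaCl tumors 1 to 3. In H89-treated tumors 1 to 3 it stood at -0.27, -0.47 and -0.43. H89-treated tumor 1 was thus the nearest to NaCl, in the large subunit (-0.25) as in the small (-0.29). Over all genes tested the same median lay between -0.003 and 0.014 in the 6 tumors.

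Each gene was then tested with edgeR across all 13118 genes that passed the filter, with Benjamini-Hochberg adjustment over all of them. The median log2 fold change of the 83 members was -0.38 (large subunit -0.38, small subunit -0.40), against 0.00 over all genes tested. The middle of the distribution was narrow, with quartiles at -0.47 and -0.30, and 78 of the 83 members were below 0. The fold changes ran from -0.73 (Rps12) to 0.21 (Rpl35a). The median stayed below 0 under each of the 4 other scalings of the counts: -0.39 with median ratio factors, -0.32 with library totals only, -0.39 with factors and library totals computed without the members and -0.21 after quantile normalization with limma. Members below 0 numbered 78, 77, 78 and 78 under these. Library totals only moved the median of all genes to 0.08.

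At an adjusted p under 0.05, 8 of the 83 members were lower and 0 were higher, 7 of the large and 1 of the small subunit. Over all genes tested 95 were lower (0.724%) and 113 higher (0.861%). At an unadjusted p under 0.05, 65 members were lower, 38 large and 27 small, and 0 were higher, where all genes gave 1566 lower (11.9%) and 1719 higher (13.1%). The 8 calls lay close to the threshold, with adjusted p from 0.0407 to 0.0488, and their number moved with the method. DESeq2, with a Wald test on the same genes, called 58 members lower and 0 higher, where it called 695 of all genes lower (5.30%) and 698 higher (5.32%). With library totals only, edgeR called 2 members, and all genes then split into 33 lower and 131 higher. Quantile normalization with limma called 0 members, where 25 of all genes were lower and 55 higher. At an unadjusted p under 0.05 it had 34 members lower, beside 1456 of all genes. In edgeR 0 members were called when any of the 6 tumors was left out, that is NaCl tumor 1, 2 or 3 or H89-treated tumor 1, 2 or 3. Calls were lost over all genes too, which then had 2, 0, 0, 0, 0 and 1 lower and 0, 0, 0, 0, 0 and 11 higher. Members lower at an unadjusted p under 0.05 then numbered 64, 65, 58, 70, 56 and 59 in that order, beside 1255, 1147, 1261, 1823, 1036 and 1237 of all genes, and the median was -0.40, -0.43, -0.34, -0.47, -0.35 and -0.37.

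Counted without a model, 62 members had CPM that did not overlap between groups and was lower in the H89-treated tumors, and 1, Rpl35a, was higher. Over all genes these counts were 1312 lower (10.0%) and 2683 higher (20.5%). TMM-scaled CPM gave 65 members lower and 0 higher, with 2028 of all genes lower (15.5%) and 1994 higher (15.2%). The scaling thus moved the balance over all genes, while 62 and 65 of the 83 members were on the lower side.

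**Figure D2:**
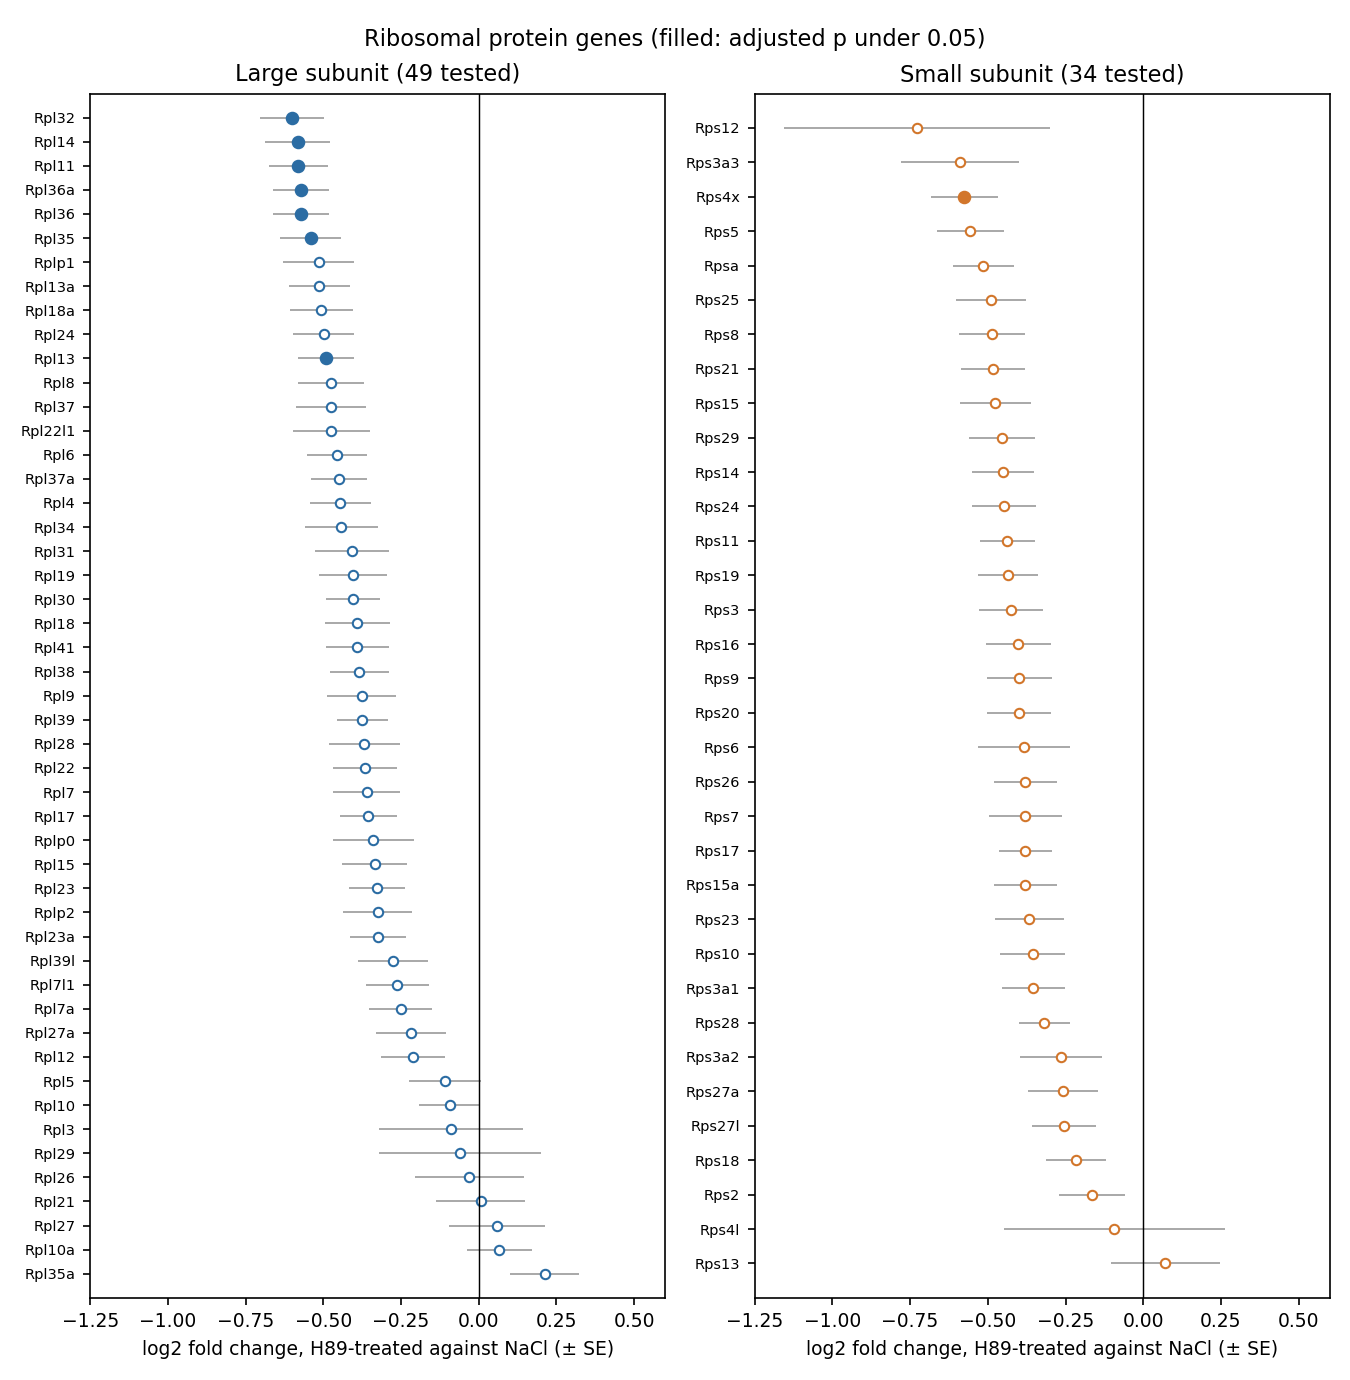
The log2 fold change of H89-treated against NaCl tumors with its standard error for the 49 large and 34 small subunit members tested, sorted, with filled points at an adjusted p under 0.05. Rpl32 at -0.60 is the lowest of the called members. Rps12 at -0.73 has a standard error of 0.43 and Rps3a3, a pseudogene at -0.59, has a mean of 2.28 CPM, and neither was called.

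The 8 called members are shown tumor by tumor, beginning with the smallest p. Rpl36a, an X-linked protein of the large subunit near the site where tRNA leaves, stood at 591, 600.2 and 689 CPM in NaCl and at 419, 434 and 476 CPM in H89-treated tumors (log2 fold change -0.57 ± 0.0905 SE, edgeR adjusted p 0.0407). Rpl36, another large subunit protein, stood at 566, 550.1 and 613 CPM in NaCl and at 417, 385 and 418 CPM in H89-treated tumors (-0.57 ± 0.0905 SE, edgeR adjusted p 0.0407). In both genes the lowest NaCl tumor was well above the highest H89-treated tumor.

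Rpl11 binds 5S rRNA together with Rpl5, and the free complex restrains Mdm2 and so raises p53. It stood at 704, 732 and 798 CPM in NaCl and at 548, 503 and 514 CPM in H89-treated tumors (log2 fold change -0.58 ± 0.0949 SE, edgeR adjusted p 0.0413). Its groups did not overlap. Rpl5, its partner, was at 34.7, 35.9 and 35.9 CPM in NaCl and at 38.7, 33.5 and 31.3 CPM in H89-treated tumors (-0.11 ± 0.116 SE, adjusted p 0.594), and its groups overlapped. Most reads of the Rpl5 sequence were on its copy Gm15500, so its own value is uncertain.

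Rpl32 stood at 1395, 1496 and 1738 CPM in NaCl and at 1063, 1011 and 1126 CPM in H89-treated tumors (log2 fold change -0.60 ± 0.103 SE, edgeR adjusted p 0.0427), the lowest fold change among the 8. Rpl14 stood at 899, 922 and 1089 CPM in NaCl and at 690.1, 635 and 714 CPM in H89-treated tumors (-0.58 ± 0.104 SE, adjusted p 0.0449). Both are large subunit proteins, and in both NaCl tumor 3 was the highest of the 6. Rpl35, which lies at the exit of the tunnel for the new protein, stood at 1014, 1101 and 1249.6 CPM in NaCl and at 810.4, 804 and 809 CPM in H89-treated tumors (-0.54 ± 0.098 SE, adjusted p 0.0471). The 3 H89-treated tumors were within a few CPM of each other there.

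Rpl13 stood at 2498, 2307 and 2406 CPM in NaCl and at 1817, 1728 and 1842 CPM in H89-treated tumors (log2 fold change -0.49 ± 0.0901 SE, edgeR adjusted p 0.0480). It is among the 5 members with the highest level per kb of transcript. Rps4x, the X-linked small subunit protein whose human relative also has a copy on the Y chromosome, stood at 2303, 2106 and 2568 CPM in NaCl and at 1595, 1523 and 1799.95 CPM in H89-treated tumors (-0.58 ± 0.108 SE, adjusted p 0.0488). Neither gene's groups overlapped. Across the settings tried, each of these 8 kept a fold change below 0, with Rpl13 the nearest to it, at -0.20 after quantile normalization.

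The starts of these genes are shown because the TOP motif is a shared feature of the family that the symbols do not use. RefSeq promoters, 250 bases before to 50 bases after the start site on GRCm38.p6, were at hand for 63 members. Within 25 bases on either side of the start site, 33 of the 63 members (52.38%) held a run of at least 8 C or T, against 22.25% of 27025 symbols with a promoter. The letters TTCCGG, on either strand, were in 35 of the 63 promoters (55.56%) and in 16.66% of all (30.35% of the genes tested); a run ending in TTCC can share letters with this motif. Among members tested, the median log2 fold change was -0.38 in the 32 with the run and -0.38 in the 28 without. The run was sought anywhere within 25 bases of the annotated start site, so it need not be the TOP motif. The part of that motif in the fold changes was not tested.

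Below are 35 bases before to 25 bases after the start site for the called members in the table, followed by Rps6 and Rpl10a, on the strand of the gene. The longest run of C or T within 25 bases of the start site is in capitals, and Rps4x, whose longest run has 4 bases, has none marked. The stretches are chrX:134585619-134585678 (Rpl36a, plus strand), chr4:136053369-136053428 (Rpl11, minus), chr9:120571482-120571541 (Rpl14, plus), chr2:39005107-39005166 (Rpl35, minus), chr8:123102315-123102374 (Rpl13, plus), chrX:102189367-102189426 (Rps4x, minus), chr4:86857343-86857402 (Rps6, minus) and chr17:28328530-28328589 (Rpl10a, plus).
Rpl36a: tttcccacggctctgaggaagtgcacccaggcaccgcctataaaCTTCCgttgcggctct
Rpl11: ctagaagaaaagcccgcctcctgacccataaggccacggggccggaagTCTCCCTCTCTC
Rpl14: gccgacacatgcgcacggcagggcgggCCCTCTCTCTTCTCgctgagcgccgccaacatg
Rpl35: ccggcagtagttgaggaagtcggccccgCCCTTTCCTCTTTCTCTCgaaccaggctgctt
Rpl13: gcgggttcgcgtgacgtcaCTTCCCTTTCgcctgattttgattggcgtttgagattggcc
Rps4x: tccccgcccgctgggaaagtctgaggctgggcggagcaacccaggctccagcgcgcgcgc
Rps6: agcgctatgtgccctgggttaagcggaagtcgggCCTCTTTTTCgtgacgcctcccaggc
Rpl10a: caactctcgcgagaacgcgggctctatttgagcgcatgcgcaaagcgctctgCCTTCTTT

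The runs of Rpl35 (18 bases), Rpl14 (14 bases), Rpl13 and Rps6 (10 bases each) begin before the annotated start site. Those of Rpl11 (12 bases) and Rpl10a (8 bases) begin after it, reach the end of the stretch searched and may be longer. Within 25 bases of the start site the longest run of Rpl36a, the member with the smallest p, has 5 bases.

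Members with a known role apart from building the ribosome were followed by name. Rps6, the substrate of S6 kinase, was at 41.4, 46.4 and 55.5 CPM in NaCl and at 43.8, 32.8 and 38.3 CPM in H89-treated tumors (log2 fold change -0.38 ± 0.149 SE, edgeR adjusted p 0.167), and its groups overlapped through H89-treated tumor 1. Rpsa, a small subunit protein also known as a laminin receptor, was at 4665, 4484 and 4938 CPM in NaCl and at 3586, 3198 and 3565 CPM in H89-treated tumors (-0.51 ± 0.0987 SE, adjusted p 0.0504). Its groups did not overlap, and it missed the threshold by little. Rpl13a, which can leave the ribosome to silence inflammatory mRNAs, was at 868, 898 and 997 CPM in NaCl and at 714, 643 and 671 CPM in H89-treated tumors (-0.51 ± 0.099 SE, adjusted p 0.0504). Rps27a, made as a fusion with ubiquitin, was at 439, 466 and 574 CPM in NaCl and at 433, 412 and 453 CPM in H89-treated tumors (-0.26 ± 0.113 SE, adjusted p 0.205). Its highest H89-treated tumor passed its lowest NaCl tumor, so the groups overlapped.

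Rplp0, Rplp1 and Rplp2 form the stalk that brings elongation factors to the ribosome. Rplp1 was at 3198, 2691 and 2959 CPM in NaCl and at 2280.1, 2003 and 2216 CPM in H89-treated tumors (log2 fold change -0.52 ± 0.113 SE, edgeR adjusted p 0.0630). Rplp2 was at 952, 848 and 954 CPM in NaCl and at 829, 709 and 767 CPM in H89-treated tumors (-0.33 ± 0.110 SE, adjusted p 0.127). Rplp0 was at 566, 523 and 569 CPM in NaCl and at 522, 444 and 406 CPM in H89-treated tumors (-0.34 ± 0.129 SE, adjusted p 0.163). In all 3 genes the H89-treated tumors were below the NaCl tumors, with Rplp0 apart by about 1 CPM, and none passed the adjusted threshold in edgeR.

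Only 5 members had a fold change above 0 in edgeR, and none of them was called. Rpl35a, a large subunit protein mutated in some cases of Diamond-Blackfan anemia, was at 17.2, 21.0 and 18.0 CPM in NaCl and at 22.7, 21.3 and 24.3 CPM in H89-treated tumors (log2 fold change 0.21 ± 0.111 SE, adjusted p 0.271). It was the single member whose H89-treated tumors were above the NaCl tumors in CPM, which was not so after TMM scaling. Rpl10a, a protein of the mobile stalk by which tRNA leaves, was at 143, 161 and 165 CPM in NaCl and at 184, 171 and 159.5 CPM in H89-treated tumors (0.07 ± 0.104 SE, adjusted p 0.720), with overlap. Rps13 (0.07 ± 0.175 SE), Rpl27 (0.06 ± 0.154 SE) and Rpl21 (0.01 ± 0.143 SE) overlapped too, and their adjusted p were 0.829, 0.841 and 0.983. Without H89-treated tumor 1 the values of Rpl10a, Rps13, Rpl27 and Rpl21 fell below 0, at -0.02, -0.14, -0.11 and -0.03. Rpl21 was also below 0 after quantile normalization, at -0.09.

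The fold change went with the level. To compare genes, CPM was divided by transcript length, in CPM per kb. The 5 highest members on this scale were Rpl41 (mean over the 6 tumors 5387 CPM per kb), Rplp1 (5126), Rpl13 (2692), Rps15 (2554) and Rpsa (2547). Their log2 fold changes lay between -0.39 for Rpl41 and -0.52 for Rplp1. The 5 lowest tested were Rps4l (1.41 CPM per kb), Rpl3 (1.98), Rps3a3 (2.87), Rpl26 (11.6) and Rpl21 (13.7), with fold changes from -0.59 for Rps3a3 to 0.01 for Rpl21. Rpl3, a protein beside the site of peptide bond formation that every ribosome holds, was thus among the lowest members as quantified here, and its own value is uncertain.

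Over the 83 members, which share libraries and are not independent replicates, Pearson's r between the log2 fold change and the log2 level per kb was -0.622 and Spearman's rho -0.539. With transcript length alone r was 0.0252 and rho 0.0396, and 3 such relations across members were computed in all. Split at 100 CPM per kb, a value chosen after seeing the data, the 68 members at or above it had a median of -0.41, and 62 of them were lower at an unadjusted p under 0.05. The 15 members below it had a median of -0.09, and 3 were lower at that threshold. Over all genes tested 11.9% were lower at it. This split uses the mean over all 6 tumors.

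**Figure D3:**
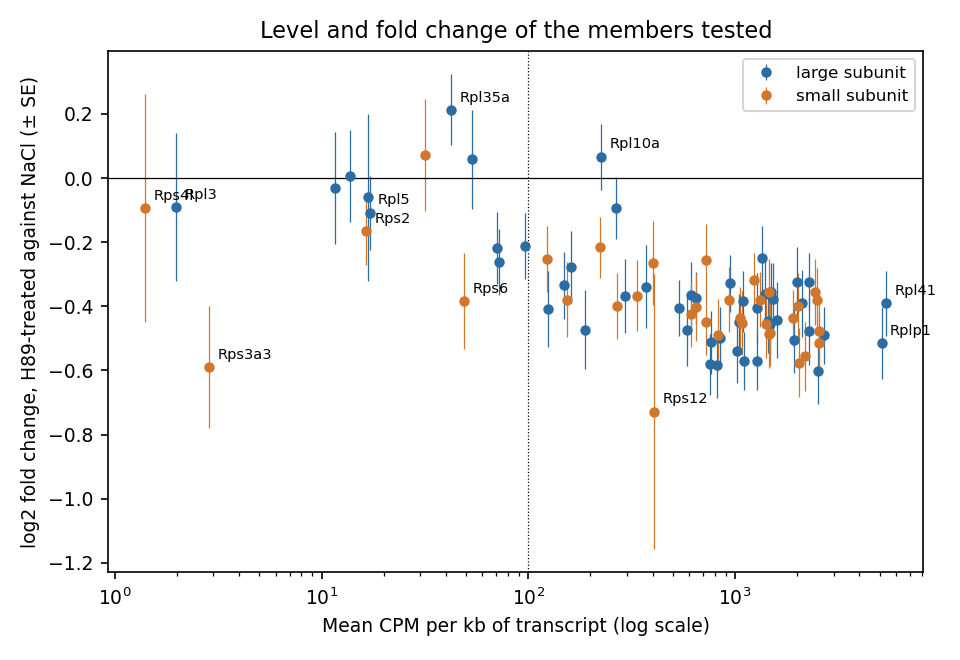
The log2 fold change (± SE) of each member tested against its mean level over the 6 tumors in CPM per kb on a log scale, with the 100 CPM per kb split dotted. Of the 15 members left of the line 3 were lower at an unadjusted p under 0.05, and of the 68 on its right 62 were. Over all genes tested 11.9% were.

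For some members most reads were counted on copies of the gene elsewhere in the genome. A copy was a gene whose transcript matched at least 60% of the member's coding sequence at 95% identity or more, in more than 50% of its transcripts, or whose symbol is the member's with -ps. The deposited table held 337 such copies, for 62 members, 70 of them by symbol only, whose identity to the member is not known here. In the annotation 574 copies were found by sequence, of which 307 were not in the table and were not analysed here. Copies in the table that are not members themselves summed to 15632, 15322 and 17104 CPM in NaCl and to 12860, 11884 and 12493 CPM in H89-treated tumors, a log2 ratio of -0.37 with no overlap. Members and copies together held 8.92% ± 0.581 of all counts in NaCl against 6.90% ± 0.318 in H89-treated tumors (mean ± SD, n = 3 each).

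For 12 of the members tested, less than 50% of the summed count was on the member itself, from 0.442% for Rps2 to 47.8% for Rpl26. Rps2, near the entry of the mRNA into the small subunit, was at 16.0, 17.6 and 17.3 CPM in NaCl and at 16.3, 15.1 and 16.2 CPM in H89-treated tumors, with overlap. Its copy Rps2-ps10, 98.01% identical, was at 4232, 3961 and 4163 CPM in NaCl and at 3507, 3053 and 2998 CPM in H89-treated tumors, with none. The counts of the gene and of its copies cannot be told apart where the sequences do not differ, so the values of the genes apart are uncertain.

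Rps27 is the extreme case. It was at 0 in every tumor, while Rps27rt, whose sequence is identical over the whole coding sequence, was at 1023, 924 and 996 CPM in NaCl and at 713, 684 and 791 CPM in H89-treated tumors (log2 fold change -0.50 ± 0.0928 SE, edgeR adjusted p 0.0481). The groups did not overlap. Rpl10, which joins the large subunit late in its assembly, was at 216, 207 and 220.2 CPM in NaCl and at 224, 211 and 197 CPM in H89-treated tumors, with overlap. Its copy Rpl10-ps3, identical over the coding sequence, was at 2136, 2048 and 2402 CPM in NaCl and at 1534, 1547 and 1726 CPM in H89-treated tumors (-0.53 ± 0.0954 SE, adjusted p 0.0471).

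Some stretches that do separate a gene from its copy are shown, since reads from them alone can tell the pair apart. Each is the 60-base stretch of coding sequence with the most differing bases, which are in capitals, from GENCODE transcripts on GRCm38. Rplp0 and Gm8730, a processed pseudogene, differ at 12 of 951 bases (98.74% identical), and the lines give coding bases 388 to 447. Gm9625, another copy of Rplp0 (97.37% identical), was not compared at these bases. The Rplp0 line is therefore not known to tell Rplp0 from Gm9625. Rps23 and Gm9701 differ at 13 of 429 bases (96.97% identical), and the lines give coding bases 175 to 234. Rps23-ps1, another copy with more counts than Gm9701, is 100% identical to Rps23 over 99.07% of the coding sequence. The Rps23 line is therefore not known to tell Rps23 from Rps23-ps1. Rplp0 lies at chr5:115559467-115563727 on the plus strand and Gm8730 at chr8:102864845-102865798 on the minus strand. Rps23 lies at chr13:90922958-90924950 on the plus strand and Gm9701 at chr3:62923807-62924233 on the minus strand.
Rplp0: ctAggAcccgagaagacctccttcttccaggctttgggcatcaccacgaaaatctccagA
Gm8730: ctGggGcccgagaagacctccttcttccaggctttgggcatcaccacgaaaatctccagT
Rps23: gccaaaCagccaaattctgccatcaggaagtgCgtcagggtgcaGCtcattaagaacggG
Gm9701: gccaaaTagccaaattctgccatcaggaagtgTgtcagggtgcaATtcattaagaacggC

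In the deposited counts Gm8730 was at 1079, 936 and 936 CPM in NaCl and at 959, 785 and 751 CPM in H89-treated tumors. Its groups overlapped (log2 fold change -0.31 ± 0.14 SE, edgeR adjusted p 0.218). Gm9701 was at 208, 159 and 150.3 CPM in NaCl and at 143, 113 and 119.6 CPM in H89-treated tumors, and Rps23 at 313, 341 and 389 CPM in NaCl and at 300.2, 258 and 289 CPM in H89-treated tumors. Neither of these overlapped between groups. Rps23-ps1 did overlap, at 192, 231 and 265 CPM in NaCl and at 181, 183 and 198 CPM in H89-treated tumors.

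Summing each member with its copies was chosen after seeing the data. This gave 82 members, of which 9 were lower at an adjusted p under 0.05, where 100 of the 13066 genes then tested were (0.765%). At an unadjusted p under 0.05, 72 were lower, where 1570 of all genes were (12.0%). The median was -0.41, and 7 of the 9 were among the 8 members called before. Rpl11 was not, at -0.51 with an adjusted p of 0.0625, while Rpl12 (-0.55, adjusted p 0.0489) and Rps27 with Rps27rt (-0.50, adjusted p 0.0489) passed. With library totals only, 1 summed member was called. In edgeR 0 summed members were called when NaCl tumor 1, 2 or 3 or H89-treated tumor 1, 2 or 3 was left out, where 71, 68, 62, 72, 62 and 65 were lower at an unadjusted p under 0.05. Over all genes of these fits 2, 0, 0, 0, 0 and 1 were called lower, and 1255, 1142, 1257, 1826, 1033 and 1244 were lower at an unadjusted p under 0.05.

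In the 12 members with most counts elsewhere, the median went from -0.21 for the member alone to -0.42 for the sum. Lower at an unadjusted p under 0.05 were 3 of the 12 alone and 10 of the 12 as sums. Over all genes 11.9% were lower at that threshold, and 12.0% in the fit with copies summed. In 2 of the 12, Rps7 and Rps18, the largest copy was found by symbol only. In the other 10 the median went from -0.19 to -0.42, with 2 lower alone and 8 as sums at that threshold. Rpl10 went from -0.09 ± 0.0979 SE to -0.48 ± 0.0944 SE, Rps2 from -0.17 ± 0.107 SE to -0.43 ± 0.119 SE, and Rpl27 from 0.06 ± 0.154 SE to -0.41 ± 0.104 SE. Rps12, the member with the lowest fold change alone, was at 232, 144 and 363 CPM in NaCl and at 246, 117 and 99.4 CPM in H89-treated tumors. It went from -0.73 ± 0.428 SE to -0.47 ± 0.106 SE, so the sum was the less scattered value. Rpl5 stayed near 0, at -0.03 ± 0.148 SE as a sum. Its copy Gm15500, identical over the coding sequence, was at 299, 414 and 466 CPM in NaCl and at 335, 438 and 446 CPM in H89-treated tumors, with overlap (-0.02 ± 0.162 SE, edgeR adjusted p 0.945).

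The sum did not bring every member with a fold change near or above 0 to the others. Rpl10a (0.07), Rps13 (0.06), Rpl35a (0.21) and Rpl21 (-0.06) held most of their summed counts and stayed near or above 0. Rpl26, with 47.8% of its summed count on the gene, had -0.87 ± 0.741 SE as a sum, a value without precision. After summing, r between fold change and log2 level per kb was -0.556 over 82 members, and Spearman's rho -0.436. In the 69 members that held at least 50% of their summed count themselves, the median was -0.40. Of these, 61 were lower at an unadjusted p under 0.05, where 11.9% of all genes were.

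**Figure D4:**
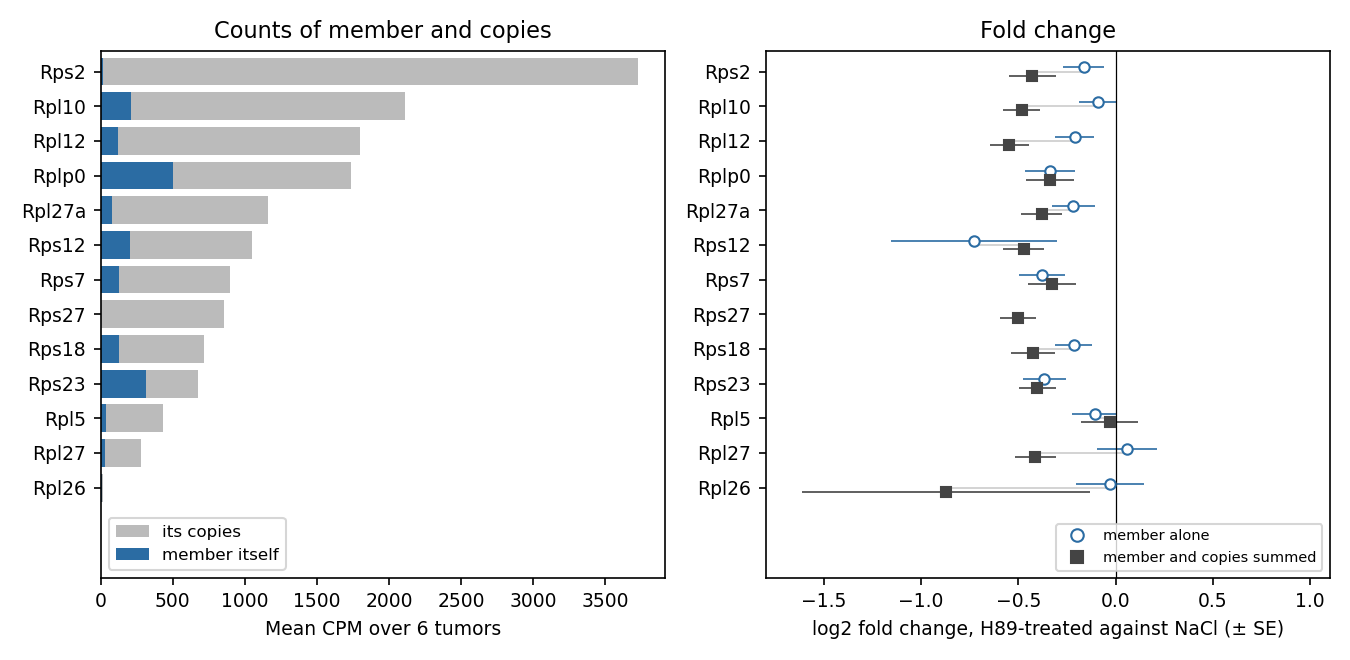
Left, mean CPM over the 6 tumors of the member itself (blue) and of its copies by sequence or symbol (gray) for the members that held under 50% of their summed count and for Rps27. Right, the log2 fold change (± SE) of the member alone and of the sum; Rpl10 went from -0.09 to -0.48 and Rpl27 from 0.06 to -0.41, while Rpl5 was at -0.03 as a sum.

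Paralogs, which can stand in for a partner in the ribosome of some tissues, were compared with that partner within each tumor, so that the scaling between tumors plays no part. Of 8 pairs, 5 had both genes above the filter. The log2 ratio of Rpl36al to Rpl36a was -1.66, -1.63 and -1.67 in NaCl and -1.21, -1.46 and -1.55 in H89-treated tumors. The groups did not overlap, with a difference of 0.24 (exact two-sided permutation p 0.1, n = 3 per group), the smallest p that 3 against 3 tumors can give. Adjusted over the 5 ratios it was 0.5.

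In the other 4 pairs the groups overlapped. The difference was 0.09 for Rpl7l1 to Rpl7 (exact permutation p 0.4), -0.09 for Rpl22l1 to Rpl22 (exact permutation p 0.5), 0.09 for Rpl39l, known from testis, to Rpl39 (exact permutation p 0.5) and 0.46 for Rps4l to Rps4x (exact permutation p 0.2). The adjusted p was 0.5 for each of them. Rps4l had a mean of 1.11 CPM, so that its ratio rests on few counts. By themselves Rpl22l1 (-0.47 ± 0.123 SE), Rpl39l (-0.28 ± 0.112 SE), Rpl7l1 (-0.26 ± 0.102 SE) and Rps27l (-0.25 ± 0.103 SE) were below 0, as were Rpl22 (-0.37), Rpl39 (-0.37) and Rpl7 (-0.36), and none of these was called in edgeR. Rpl3l, Rpl10l and Rps27 were too low for a ratio.

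The other genes of the pathway were taken from 6 lists with 247 genes in all, each of which passed the filter. In edgeR 5 of the 247 were lower and 1 higher at an adjusted p under 0.05, where 95 of all 13118 genes were lower (0.724%) and 113 higher (0.861%). Proteins of the ribosome whose symbols fall outside the rule were 5. Their median was -0.42, and DESeq2 called 4 of the 5 lower, where it called 5.30% of all genes lower. In edgeR 2 were lower, Rps27rt as given above and Rack1, a scaffold on the small subunit. Rack1 was at 2621, 2479 and 2805 CPM in NaCl and at 1757, 1734 and 2015 CPM in H89-treated tumors (log2 fold change -0.59 ± 0.0948 SE, adjusted p 0.0407), with no overlap. Fau, made as a fusion with a ubiquitin-like protein, had -0.42 ± 0.0826 SE (adjusted p 0.0513).

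Translation factors, 45 in number, had a median of -0.23. At an unadjusted p under 0.05, 24 were lower and 2 higher, where 11.9% of all genes were lower and 13.1% higher. DESeq2 called 16 of the 45 lower and 1 higher, where it called 5.30% of all genes lower and 5.32% higher. In edgeR 1 was lower and 1 higher at an adjusted p under 0.05. The lower one was Pabpc4, which binds poly(A) tails. It was at 585, 516 and 599 CPM in NaCl and at 364, 410.2 and 390.3 CPM in H89-treated tumors (log2 fold change -0.62 ± 0.0959 SE, adjusted p 0.0407). The higher one was Eif4a2, a helicase of translation initiation, at 115, 117 and 129.6 CPM in NaCl and at 159, 177 and 188 CPM in H89-treated tumors (0.46 ± 0.0841 SE, adjusted p 0.0471). Neither gene's groups overlapped. Eif3f, a subunit of an initiation factor, had -0.50 ± 0.0966 SE (adjusted p 0.0504).

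The 21 genes with TOP mRNAs that are not ribosomal proteins by symbol had a median of -0.34. At an unadjusted p under 0.05, 15 were lower and 1 higher, where 11.9% of all genes were lower and 13.1% higher. Rack1 was the single call in edgeR. DESeq2 called 13 of the 21 lower and 0 higher, where it called 5.30% of all genes lower. Among the 21 genes Eef2, which moves the ribosome along the mRNA, was at 6671, 5996 and 7312 CPM in NaCl and at 4085, 4538 and 5274 CPM in H89-treated tumors (log2 fold change -0.60 ± 0.116 SE, edgeR adjusted p 0.0506). Its groups did not overlap. This list shares genes with the lists of translation factors and of other ribosomal proteins.

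Genes of ribosome assembly were nearer to 0. The 92 biogenesis genes had a median of -0.07, with 20 lower and 2 higher at an unadjusted p under 0.05, where 11.9% of all genes were lower and 13.1% higher. DESeq2 called 11 of the 92 lower and 0 higher, where it called 5.30% of all genes lower and 5.32% higher. Polr1d, a subunit shared by RNA polymerases I and III, was the single call in edgeR, at 111, 123.5 and 123.6 CPM in NaCl and 85.3, 89.4 and 92.8 CPM in H89-treated tumors (log2 fold change -0.49 ± 0.0736 SE, edgeR adjusted p 0.0407). Its groups did not overlap. Ubtf, a factor of RNA polymerase I, had -0.38 ± 0.082 SE (adjusted p 0.0620) and the nucleolar protein Nol6 -0.32 ± 0.0811 SE (adjusted p 0.0802).

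The 78 mitochondrial ribosomal proteins had a median of -0.16, with 0 called in edgeR. At an unadjusted p under 0.05, 15 were lower and 0 higher, where 11.9% of all genes were lower and 13.1% higher. DESeq2 called 3 of the 78 lower, where it called 5.30% of all genes lower. The 3 with the smallest p were Mrps27 (-0.44 ± 0.105 SE, adjusted p 0.0723), Mrps16 (-0.38 ± 0.0994 SE, adjusted p 0.0827) and Mrpl34 (-0.43 ± 0.116 SE, adjusted p 0.0888). Their summed level overlapped between groups, at 3149, 3436 and 3339 CPM in NaCl and 3315, 3050.4 and 2842 CPM in H89-treated tumors.

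The 22 genes of S6 kinase and mTOR signaling had a median of 0.03. At an unadjusted p under 0.05, 2 were lower and 1 higher, where 11.9% of all genes were lower and 13.1% higher. DESeq2 called 2 of the 22 lower and 0 higher, where it called 5.30% of all genes lower. Eif4ebp1, which holds back the cap-binding factor until mTOR phosphorylates it, was at 575, 561 and 585 CPM in NaCl and at 371, 376 and 382 CPM in H89-treated tumors (log2 fold change -0.68 ± 0.0781 SE, edgeR adjusted p 0.0338). Each group was tight and they did not overlap. Rps6ka2, a kinase of the RSK family, had -0.61 ± 0.13 SE (adjusted p 0.0617), and Rictor, a part of mTOR complex 2, had 0.43 ± 0.161 SE (adjusted p 0.160). The 6 calls over these lists were lost in edgeR when any of the 6 tumors was left out, NaCl tumor 1, 2 or 3 or H89-treated tumor 1, 2 or 3, which left 0, as were nearly all calls over all genes (0 to 2 lower and 0 to 11 higher left). DESeq2 called 40 of the 247 genes lower and 1 higher, where it called 695 of all 13118 genes lower and 698 higher.

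**Figure D5:**
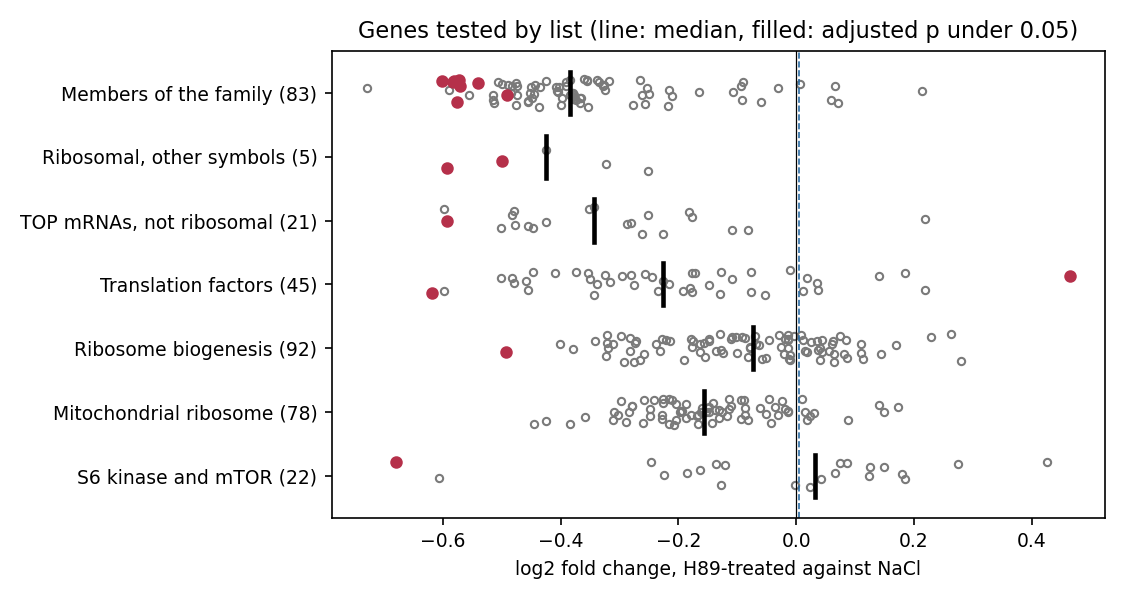
The log2 fold change of H89-treated against NaCl tumors for each gene tested, by list, with the median of each list as a bar, the median of all genes as a dashed line and filled points at an adjusted p under 0.05 in edgeR. The medians are -0.38 for the family, -0.34 for other TOP mRNAs, -0.23 for translation factors, -0.16 for mitochondrial and -0.07 for biogenesis genes, and 0.03 for S6 kinase and mTOR genes.

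Markers of cell types were summed per tumor beside these results, from 12 lists, of which the B cell list is given by 2 of its genes and not by its sum. In edgeR 0 of the 38 marker genes tested were called, while 8 were higher and 1, Krt18, was lower at an unadjusted p under 0.05, where 13.1% of all genes were higher and 11.9% lower. DESeq2 called Cd3g, Csf3r and Col1a2 higher and Krt18 lower, where it called 5.32% of all genes higher and 5.30% lower. Of the 3 neutrophil genes tested, 2 had a fold change below 0 in edgeR, so Csf3r does not stand for that list. Fibroblast markers summed to 2327, 2208 and 2119 CPM in NaCl and to 3066, 2951 and 2593 CPM in H89-treated tumors, with Col1a2 the most abundant of the 4 genes and 2 of the 4 higher at an unadjusted p under 0.05. The groups did not overlap. T cell markers summed to 11.8, 6.07 and 5.07 CPM in NaCl and to 21.3, 10.6 and 30.3 CPM in H89-treated tumors, with Cd3g the most abundant, 3 of the 4 genes higher at an unadjusted p under 0.05 and an overlap through NaCl tumor 1 and H89-treated tumor 2. Of the B cell genes, Cd79a was at 0.619, 0.554 and 0.359 CPM in NaCl and at 0.771, 1.31 and 0.970 CPM in H89-treated tumors, without overlap (log2 fold change 0.92 ± 0.337 SE, edgeR adjusted p 0.151), and Cd79b overlapped (0.46 ± 0.507 SE, adjusted p 0.602). The part of these cells in the result was not tested.

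Sums of the marker lists that follow overlapped between groups. Macrophage markers, C1qa first, summed to 776, 1306 and 1131 CPM in NaCl and 1126, 1045 and 1361 CPM in H89-treated tumors. Proliferation markers, Top2a first, summed to 715, 836 and 799 CPM in NaCl and 816, 970.0 and 939 CPM in H89-treated tumors, where 4 of 4 genes had a fold change above 0 and none an unadjusted p under 0.05. Erythroid markers were at 63.8 to 102 CPM in NaCl and at 28.6, 21.3 and 232 CPM in H89-treated tumors, endothelial markers at 72.1 to 126 and 63.0 to 100.3 CPM, neutrophil markers at 10.3 to 16.0 and 15.7 to 29.7 CPM, adipocyte markers at 10.7 to 34.3 and 13.6 to 24.6 CPM, and keratinocyte markers at 2.00 to 3.41 and 3.17 to 3.72 CPM. Skeletal muscle markers were at 0.932 to 2.24 CPM in NaCl and at 18.5, 1.44 and 1.16 CPM in H89-treated tumors, so that H89-treated tumor 1, in which the family fell least, held the most muscle RNA. The part of muscle RNA in the result was not tested, and the median of the members without that tumor was -0.47.

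The labels call the tissue CT26 tumor. Of 6 genes listed as marks of these cells, Itgb4 was the most abundant and made most of the sum of 311, 243 and 196 CPM in NaCl and 375, 258 and 257 CPM in H89-treated tumors. Krt8, Cdx2 and Cldn7 had means of 0.860, 0.182 and 0.155 CPM, so these epithelial genes were near 0 in both groups. Krt18 was at 12.7, 13.2 and 23.1 CPM in NaCl and at 8.16, 7.98 and 8.79 CPM in H89-treated tumors, without overlap (log2 fold change -1.04 ± 0.233 SE, edgeR adjusted p 0.0653). The other genes of this list that passed the filter had fold changes above 0 and were not called, at 1.03 ± 0.859 SE for Krt8, 0.23 ± 0.249 SE for Itgb4 and 0.25 ± 0.161 SE for Lgals4. Of these Lgals4, at 6.57, 5.54 and 5.59 CPM in NaCl and at 6.66, 6.92 and 8.63 CPM in H89-treated tumors, did not overlap.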

How the data were processed

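RNA of 3 NaCl and 3 H89-treated tumors was sequenced on the BGISEQ-500. The deposited table holds estimated counts per gene made by the authors, scaled neither for library size nor for length although it is called TPM: each tumor summed to 27067349 or more, where TPM would sum to 1000000. The submitters' processing notes name kallisto, DESeq2 and GRCm38, with no version or annotation. Of the gene columns, 729 used by name were listed one by one, and the other 22828, in the same unit, entered normalization and fit. Estimated counts were rounded. Genes with a mean of at least 0.5 CPM were fitted with edgeR 4.0.16 in R 4.3.3 (TMM, glmQLFit, glmQLFTest, treatment as the only term), and p-values were adjusted by Benjamini-Hochberg over all 13118. Standard errors were derived from the log2 fold change and the F statistic of the test (its size over the root of F). Alternatives used DESeq2 1.42.0 and limma 3.58.1 (quantile, voom, log2 of TMM-scaled CPM with pseudocounts of 0.5, 0.1 and 1, loess for length and GC content), no filter or 5 CPM, other factors, edgeR's robust option, a block for the replicate number, and fits without each tumor in turn. Near-identical copies were found with blastn 2.17.0 in GENCODE M21 transcripts; summing them, alone or with other factors, was chosen after seeing the data, as were the 50% and 100 CPM per kb splits. Lengths are those of 1 GENCODE M21 transcript per gene, matched by symbol, and Rps20's, at 3706 bases, may understate its level per kb. Ratios of paralogs were tested by exact two-sided permutation over 10 arrangements in python 3.11.15 with scipy 1.17.1. The pipeline was tested on simulated data. Named are the 8 members with the smallest p in each direction (5 were above 0), the 5 highest and 5 lowest per kb, paralogs with their partners, members with a separate role, and the 3 genes with the smallest p in each pathway list. Other genes, the copies and the members that copies bear on, were named after their values were seen. The members and lists, written from general knowledge, were chosen with earlier results of these data known. The spread between tumors includes counting error, which was not separated from it.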

Additional observations from a re-analysis of the deposited data

How the results depend on the processing

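The members' median log2 fold change was below 0 in 23 of 23 alternatives. It went to -0.21 after quantile normalization with limma (large subunit -0.20, small subunit -0.22). There 34 members, beside 1456 of all genes, were lower at an unadjusted p under 0.05. The median was between -0.47 and -0.32 in the other alternatives. The count of 8 called members, beside 95 of all genes lower, became 16 without a filter (beside 167), 13 with median ratio factors (128), 2 with library totals only (33), 15 with factors and library totals computed without the members (132), 0 after quantile normalization with limma (25) and 9 in limma on TMM-scaled values with a pseudocount of 0.5 (129), 58 in DESeq2 (695), 15 in voom (112), 18 with the robust option (163), 21 after the loess correction (466), 15 with copies summed and median ratio factors (124), and 1 with copies summed and library totals only (31). It was 0 to 0 with 1 tumor left out, whichever it was (beside 0 to 2), where 56 to 70 members, beside 1036 to 1823 of all genes, were lower at an unadjusted p under 0.05. The count of 6 pathway genes, beside 95 of all genes lower and 113 higher, became 13 without a filter (beside 167 and 144). It was 3 with library totals only (33 and 131), 2 after quantile normalization (25 and 55) and 41 in DESeq2 (695 and 698). In voom it was 10 (112 and 108), with the robust option 12 (163 and 146) and after the loess correction 24 (466 and 223). With 1 tumor left out it was 0 to 0 (0 to 2 and 0 to 11). The cause was not tested.

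With the replicate number as a block (replicate block), 0 members and 0 pathway genes were called in edgeR, as were 0 of all genes, 64 members, beside 1914 of all genes, were lower at an unadjusted p under 0.05, and the median was -0.39. Tumors of the same number correlated at 0.163, 0.061 and -0.025 over genes, and other pairs at up to 0.35, so the numbers were not read as pairs.

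Values near 0 changed sign. Rpl10a was -0.0196 to 0.14, Rps13 -0.14 to 0.21, Rpl27 -0.11 to 0.21, Rpl21 -0.0818 to 0.12, Rps4l -0.51 to 0.11, Rpl3 -0.24 to 0.05 and Rpl26 -0.15 to 0.0754 with 1 tumor left out. Rpl27 was -0.41 with copies summed. Rpl21 was -0.00673 without a filter, -0.092 after quantile normalization, -0.00677 in voom, -0.00329, -0.00376 and -0.00277 in limma with pseudocounts of 0.5, 0.1 and 1, -0.00311 with the replicate block and -0.063 with copies summed. Rps4l was 0.047 and Rpl26 0.047 after the loess correction, and Rpl26 was 0.034 with library totals only. The cause was not tested. The log2 ratio of the summed CPM (-0.41 to -0.32 with 1 tumor left out) and the 5 paralog ratios kept their sign in the alternatives tried for them.

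With 3 tumors per group, exact tests cannot go below 0.1, and adjusted p near 0.05 moved across the threshold with most choices. Counts of a member and its near-identical copies depend on how the quantifier divided shared reads, and copies outside the deposited table could not be followed. CPM are shares of a total: a lower share of the family does not give an amount per cell. Markers do not measure cell numbers. At 1 to 3 CPM, as for Rps4l, Rpl3 and Rps3a3, fold changes rest on few counts.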
